A study of Mus musculus with 17 samples.

Results

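The mitochondrial carriers of the Slc25 family were followed through the first week after birth in the mouse heart. Members were all genes whose mouse symbol begins with Slc25a. Their RefSeq messenger RNA entries were taken from the deposited values, and for the 5 genes with several entries the entry with the highest mean over all libraries stood for the gene. This gave 45 members of 16569 named genes, out of 47 protein-coding Slc25a genes in the RefSeq table; the remaining 2 were not analysed here. Male C57Bl/6 mice gave the RNA, from the left (LV) or the right ventricle (RV), with no genotype change and no treatment given in the labels, at postnatal days 0, 3 and 7 (P0, P3 and P7). The labels place P0 before closure of the ductus, P3 at a transition and P7 at the terminal differentiation of most heart muscle cells. Each chamber and age had 3 libraries, called biological replicates in the labels, except RV P7 with 2, so that 17 libraries were analysed. No label says whether an animal gave both chambers or whether hearts were pooled.

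Carriers of this family are small proteins that span the inner mitochondrial membrane and swap or import metabolites, nucleotides, cofactors and ions. Most alternate between a side open to the cytosol and a side open to the matrix, so that each carrier gates a step such as ADP entry against ATP exit or entry of long-chain fatty acids as acylcarnitines. The heart depends on them strongly, because nearly all of its ATP is made inside mitochondria and used outside, and around birth its main fuel shifts from glucose and lactate towards fatty acids.

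Levels are given as RPKM, reads per kilobase of transcript scaled to library depth, a scale on which genes can be compared because it is per length. The recovered libraries held 27561845 to 41061058 reads. A change is a difference of log2(RPKM + 1) between group means with its standard error (SE) from limma fitted to 10668 entries that reached 1 RPKM in at least 2 libraries. Adding 1 understates changes of low genes. The word called marks entries whose adjusted p (Benjamini-Hochberg over all tested entries, two-sided) was under 0.05. The median of all tested entries was itself lower at P7 than at P0, by -0.31 in the LV and by -0.29 in the RV, and after scaling each library to the same upper quartile these medians were -0.02 and -0.02. Both scalings are therefore given, and "rose" or "fell" without a qualification below means called in the same direction under both. RPKM is scaled to all reads of a library, also those outside the listed entries. The share of reads in listed entries was 69.6% to 73.0% in LV P0 and 53.8% to 58.1% in LV P7. In the RV it was 67.5% to 72.1% at P0 and 54.2% to 58.2% at P7. The part of this share in the lower medians as deposited was not tested. In 7 libraries, all of P3 or P7, NM_008710 had 0.128 to 0.205 RPKM, against 2.99 RPKM or more in the other 10, so libraries differed by more than chamber and age. Leaving out these 7 libraries leaves 1 library in each P3 and P7 group, so only effect sizes of that fit are given below. No P0 library was among the 7, so comparisons of later ages with P0 are partly confounded with this difference. Why these libraries differ in this entry was not tested. Heart muscle genes marked every library, with Myl2 at 10468 to 18468 RPKM and Tnni3 at 1962 to 3402. Fewer cells of a type and less RNA per cell cannot be told apart in these bulk samples.

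The family was dominated by a few carriers. The 45 members summed to 3748 to 4754 RPKM per library, 0.936% to 1.31% of the RPKM total, and Slc25a4, Slc25a5, Slc25a3 and Slc25a11 held 87.0% to 90.6% of that sum. Slc25a4, the ADP/ATP carrier of heart and skeletal muscle, had a mean of 2573 RPKM over all libraries. It was followed by Slc25a5, the ADP/ATP carrier of many other and of growing cells, at 608 RPKM, by the phosphate carrier Slc25a3 at 472 RPKM and by the oxoglutarate/malate carrier Slc25a11 at 147 RPKM. Another 11 members had means from 10 to 100 RPKM, 16 from 1 to 10, and 14 under 1. Of the 45 members 33 passed the filter on low values. The 12 that did not stayed at or under 0.759 RPKM in every library, among them Slc25a2, Slc25a14, Slc25a18, Slc25a21, Slc25a25, Slc25a31, Slc25a41, Slc25a43, Slc25a44, Slc25a48 and Slc25a53. The highest of them was Slc25a31, the ADP/ATP carrier of the testis, with a mean of 0.331 RPKM. All 5 members with several entries (among them Slc25a13, Slc25a14, Slc25a25 and Slc25a44) had means under 1 RPKM, and the sources used here do not say how reads shared by entries were assigned, so their levels may leave out reads of the gene. The gene bodies of Slc25a2, Slc25a11, Slc25a21, Slc25a25, Slc25a26, Slc25a35 and Slc25a53 overlap another protein-coding gene, and Slc25a5 has a pseudogene copy; their values are uncertain to that extent.

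**Figure D1:**
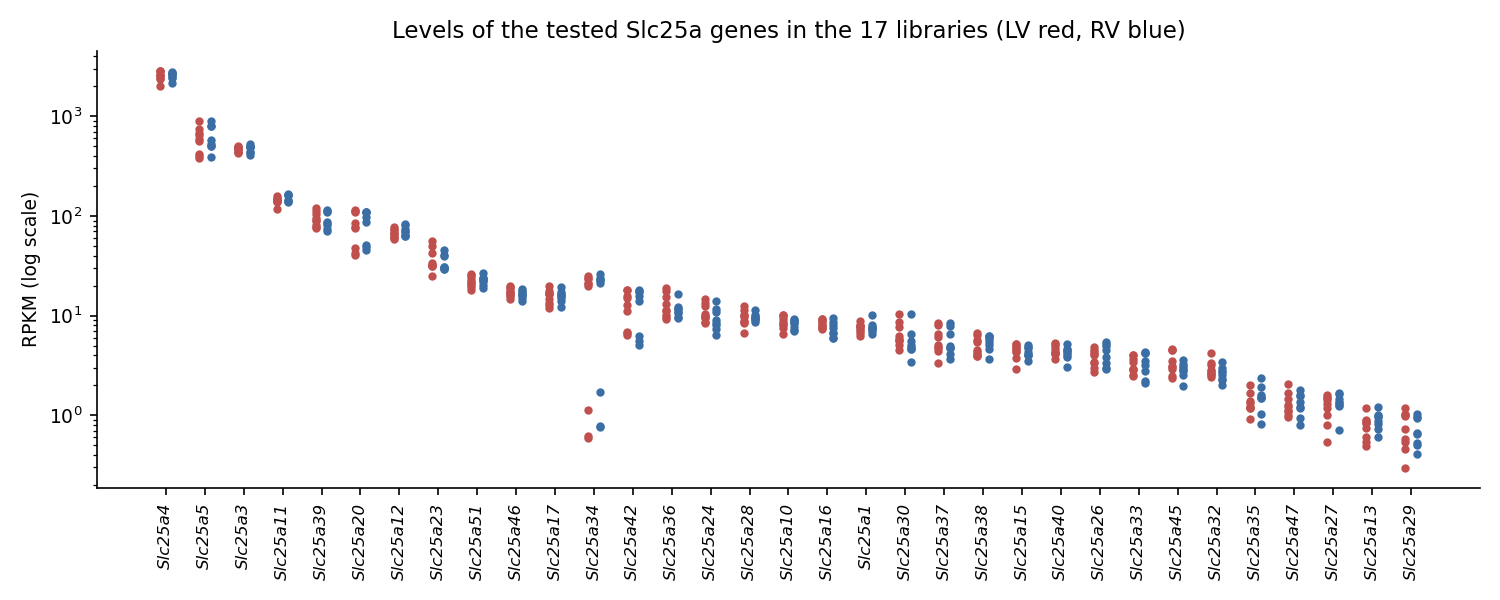
Levels of the 33 tested Slc25a genes in RPKM on a log axis, 1 point per library, LV in red and RV in blue, ordered by the mean over all 17 libraries. Slc25a4 lies highest in every library, and the points of Slc25a34 split into a cluster near 1 RPKM, which holds the P0 libraries, and a cluster near 20 RPKM.

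Between P0 and P7, 4 members rose and 4 fell in the LV under both scalings. Slc25a34, Slc25a42, Slc25a20 and Slc25a45 rose, and Slc25a5, Slc25a36, Slc25a23 and Slc25a30 fell. In the RV 5 rose (Slc25a34, Slc25a42, Slc25a20, Slc25a35 and Slc25a16) and 4 fell (Slc25a5, Slc25a30, Slc25a24 and Slc25a37). On the values as deposited, 4 of 33 members (12.1%) were called higher and 17 (51.5%) lower in the LV, beside 11.8% and 53% of all tested entries. In the RV 5 members (15.2%) were called higher and 11 (33.3%) lower, beside 9.81% and 46.1% of all tested entries. After upper-quartile scaling the counts were 8 higher and 4 lower in the LV, where 24.4% of all tested entries were higher and 25.3% lower, and 9 higher and 4 lower in the RV, where 19.8% and 20.6% were. The same shares of all tested entries stand beside the P7 against P0 counts of the gene lists below. As deposited the members' median change came to -0.26 (LV) and -0.18 (RV), and to 0.05 and 0.06 after upper-quartile scaling, beside the all-entry medians given above. Leaving out the 7 libraries low in NM_008710 leaves 1 library at P7 in each chamber, so no counts are given for that fit. In it the LV and RV changes as deposited were 3.9 and 3.62 for Slc25a34 and 0.95 and 0.82 for Slc25a20. For Slc25a5 they were -1.01 and -1.1, and for Slc25a4 0.18 and -0.04. The LV and RV comparisons share no libraries, but same-numbered LV and RV libraries of an age deviated together (correlations of 0.269 to 0.587). The chambers are therefore not taken as independent. As deposited, the members' shares lay near those of all tested entries in the LV, and no test of the difference was made in either chamber.

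**Figure D2:**
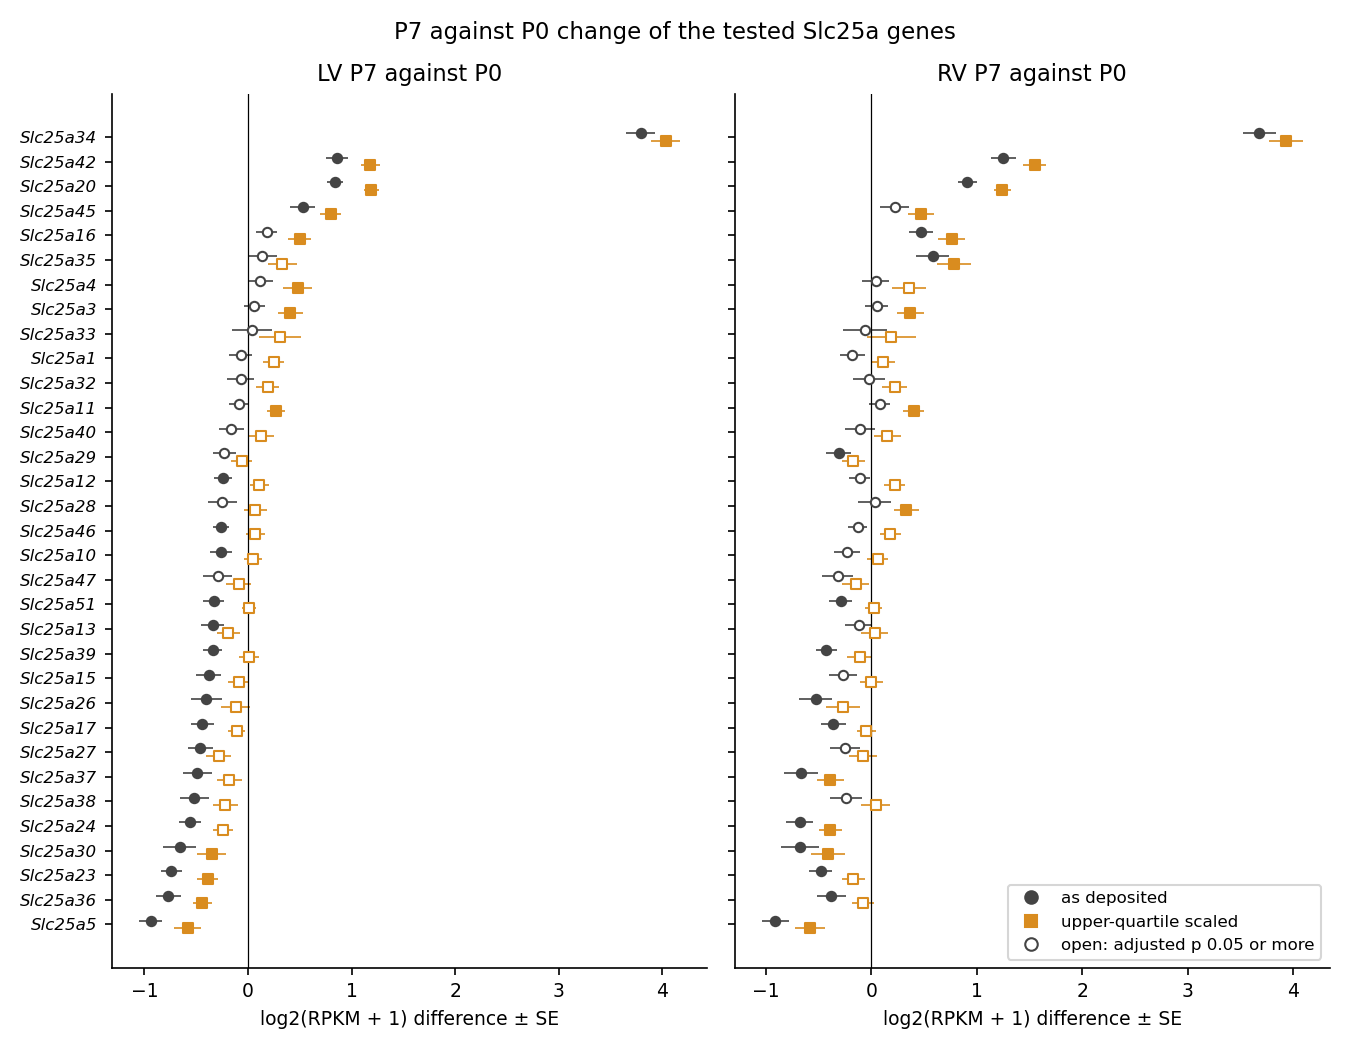
Difference of log2(RPKM + 1) between P7 and P0 for the 33 tested Slc25a genes, LV left and RV right, with bars of 1 SE; circles are values as deposited, squares upper-quartile scaled values, and open symbols an adjusted p of 0.05 or more. Slc25a34 stands apart at 3.79 and 3.68, and the scaled values lie above the deposited ones for all 33 members in both chambers.

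Slc25a34, a carrier whose substrate is not settled, went from about 1 RPKM at birth to about 20 RPKM later. Its entry is NM_001013780, and the gene lies on chromosome 4, 141618819 to 141623891 (GRCm38). The 3 LV libraries at P0 held 0.59, 0.623 and 1.12 RPKM, those at P3 21.3, 23.3 and 19.6, and those at P7 25.2, 20.9 and 23.9. The RV libraries held 0.762, 0.783 and 1.72 RPKM at P0, 22.6, 22.6 and 21.4 at P3 and 24.1 and 26.2 at P7. No P0 library reached 2 RPKM and no later library fell under 19 RPKM; replicate 3 was the highest P0 library in each chamber. Group means rose 30.0-fold from P0 to P7 in the LV (log2 change 3.79 ± 0.14, adjusted p = 4.08e-13) and 23.1-fold in the RV (log2 change 3.68 ± 0.16, adjusted p = 4.57e-12). Most of the step lay between P0 and P3, with a log2 change of 3.67 ± 0.14 in the LV and 3.50 ± 0.14 in the RV. P7 against P3 was not called in either chamber (0.12 and 0.17 as deposited, 0.30 and 0.36 after upper-quartile scaling). In the RV the P7 libraries lay above all P3 libraries, so a further small rise is not excluded.

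Slc25a20 encodes the carnitine/acylcarnitine carrier, which brings fatty acids bound to carnitine into the matrix (NM_020520, chromosome 9, 108662136 to 108684642). It stood at 42.5, 40.9 and 48.3 RPKM in LV P0, 111, 109 and 114 in LV P3 and 85.7, 75.5 and 77.3 in LV P7. RV libraries stood at 49.2, 45.5 and 50.7 RPKM at P0, 111, 109 and 110.4 at P3 and 86.2 and 98.4 at P7. The P3 libraries were the highest and the P0 libraries the lowest in each chamber, with no overlap between ages. Mean levels were 1.81-fold higher at P7 than at P0 in the LV (log2 change 0.84 ± 0.08, adjusted p = 1.12e-07) and 1.9-fold higher in the RV (log2 change 0.91 ± 0.09, adjusted p = 3.2e-07). From P3 to P7 Slc25a20 fell in the LV (log2 change -0.48 ± 0.08, adjusted p = 0.000429; -0.29 ± 0.07, adjusted p = 0.00824 after upper-quartile scaling), while the RV change was not called (log2 change -0.25 ± 0.09, adjusted p = 0.0641); whether these steps differ between chambers was not tested.

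The genes listed for carnitine use were 4 transferases and Slc22a5, a transporter that brings carnitine into the cell through the plasma membrane. Of these 5 genes 4 were called higher at P7 than at P0 in each chamber, and 5 after upper-quartile scaling. Cpt2, which re-forms acyl-coenzyme A in the matrix, went from 39.0 to 81.8 RPKM in the LV (log2 change 1.05) and from 39.5 to 95.3 in the RV (1.26). The acetyl transferase gene Crat (0.48 and 0.60) and the liver-type transferase gene Cpt1a (0.49 and 0.64) were higher as well. Cpt1b, the muscle-type transferase of the outer membrane, was the member not called as deposited (0.05 and 0.12). The summed level of the 5 genes was 163 to 167 RPKM in LV P0, 289 to 304 in LV P3 and 227 to 267 in LV P7, so it was highest at P3, as Slc25a20 was.

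Slc25a42, a carrier of coenzyme A and adenine nucleotides (NM_001007570, chromosome 8, 70184340 to 70212281), had the same order of ages. The LV libraries held 6.77, 6.35 and 6.93 RPKM at P0, 18.2, 15.6 and 18.0 at P3 and 15.1, 11.1 and 12.8 at P7. The RV libraries held 5.03, 5.57 and 6.32, then 17.6, 17.9 and 17.1, then 15.7 and 13.9 RPKM. All later libraries lay above all P0 libraries. The P7 against P0 change was 1.95-fold in the LV (log2 change 0.86 ± 0.11, adjusted p = 1.9e-06) and 2.63-fold in the RV (log2 change 1.25 ± 0.12, adjusted p = 1.35e-07). The difference between the chambers' changes was 0.40 ± 0.16 and was not called (adjusted p = 0.936). In the LV the step from P3 to P7 was called lower as deposited (log2 change -0.39 ± 0.11, adjusted p = 0.0102) and not after upper-quartile scaling (-0.21 ± 0.09, adjusted p = 0.111).

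The bases just upstream of these 3 genes and of the ADP/ATP carrier pair are shown because the first 3 had the highest called changes between P0 and P7 and the pair holds most of the family's level. They are RefSeq sequences of GRCm38.p6, printed 5′ to 3′ on the strand of the gene up to the base before its annotated start: chr4:141623892-141624084 (minus strand), chr9:108661886-108662135 (plus), chr8:70212282-70212531 (minus), chr8:46211063-46211312 (minus) and chrX:36795347-36795596 (plus). Capitals mark CCAAT or AAGGTCA on either strand.
Slc25a34: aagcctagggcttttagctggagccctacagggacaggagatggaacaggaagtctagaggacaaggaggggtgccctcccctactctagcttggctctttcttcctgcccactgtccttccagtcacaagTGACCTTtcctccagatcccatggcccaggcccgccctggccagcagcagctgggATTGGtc
Slc25a20: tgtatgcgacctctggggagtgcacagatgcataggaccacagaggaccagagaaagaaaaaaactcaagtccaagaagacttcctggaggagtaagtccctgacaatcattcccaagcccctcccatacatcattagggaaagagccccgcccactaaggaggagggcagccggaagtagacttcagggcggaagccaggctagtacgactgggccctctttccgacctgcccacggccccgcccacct
Slc25a42: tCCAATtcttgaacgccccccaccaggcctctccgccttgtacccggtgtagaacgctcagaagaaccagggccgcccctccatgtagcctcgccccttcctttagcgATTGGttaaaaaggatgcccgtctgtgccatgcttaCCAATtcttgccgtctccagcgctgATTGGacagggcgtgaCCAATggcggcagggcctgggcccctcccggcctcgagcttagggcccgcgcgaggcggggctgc
Slc25a4: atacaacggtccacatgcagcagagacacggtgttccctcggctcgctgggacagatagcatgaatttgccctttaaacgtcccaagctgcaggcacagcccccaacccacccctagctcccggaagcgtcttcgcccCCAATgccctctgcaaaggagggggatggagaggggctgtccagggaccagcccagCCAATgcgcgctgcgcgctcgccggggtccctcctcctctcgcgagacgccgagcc
Slc25a5: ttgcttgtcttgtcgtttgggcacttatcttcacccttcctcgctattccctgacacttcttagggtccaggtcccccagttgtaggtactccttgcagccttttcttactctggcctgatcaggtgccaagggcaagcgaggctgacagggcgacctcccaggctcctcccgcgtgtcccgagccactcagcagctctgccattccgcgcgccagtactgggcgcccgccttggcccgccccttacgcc

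AAGGTCA is the half-site that many nuclear receptors recognise, and it was found in reverse orientation 62 to 56 bases before the start of Slc25a34. RefSeq promoter windows, each 250 bases before to 50 after a start, were searched on both strands for 8 strings. Windows existed for 34 members. AAGGTCA was in the windows of 5.38% of 27025 genes and of 1 member, Slc25a34. TGACCT, which AAGGTCA contains in reverse, was in 18.13% of genes and 4 members (Slc25a34, Slc25a39, Slc25a45 and Slc25a47). CCAAT was in 41.06% of genes and 18 members; Slc25a42 has 5 copies in the bases shown, Slc25a4 has 2, Slc25a34 has 1 and Slc25a20 and Slc25a5 have 0. The longer TCAAGGTCA (0.47% of genes) and GGTCAAAGG (0.4%) were in 0 members, GCGCATGC (3.05%) in 1, CACGTG (8.09%) in 7 and TATAAA (15.67%) in 2. A match is a description of these letters, and binding was not measured.

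**Figure D3:**
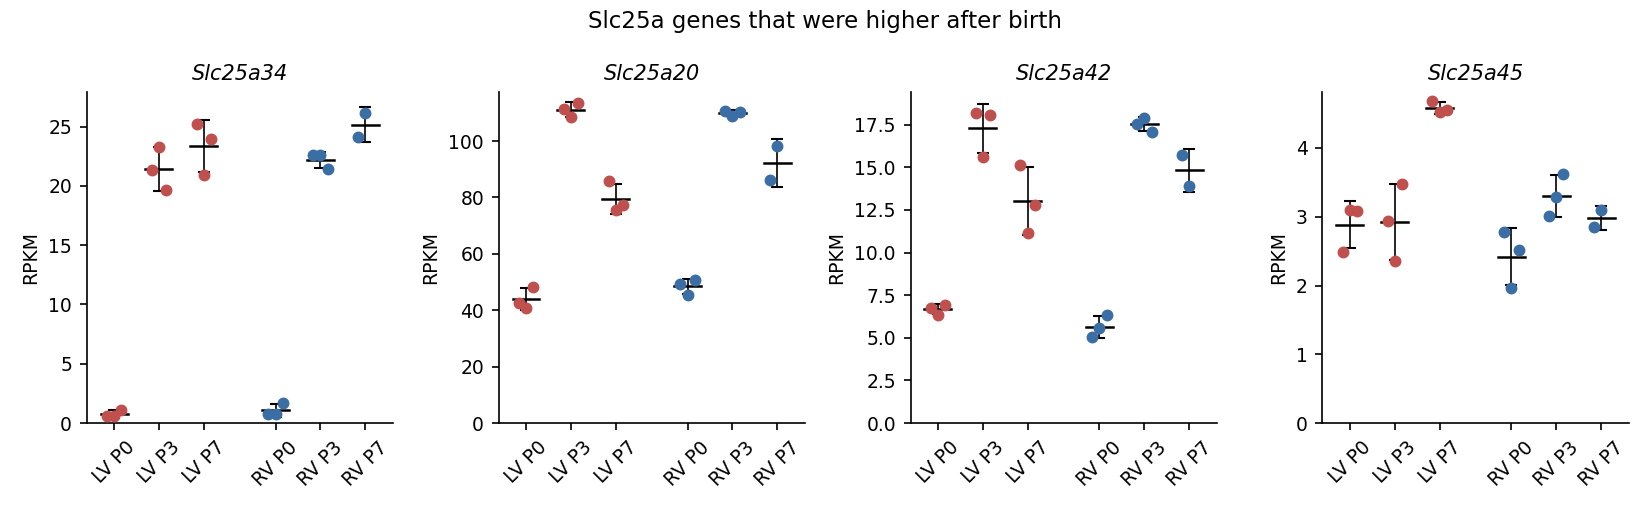
RPKM of Slc25a34, Slc25a20, Slc25a42 and Slc25a45 in each library (points, LV red and RV blue), with group means (lines) and SD (bars), by chamber and age. Slc25a34 is near 1 RPKM at P0 and at 19 RPKM or more later, Slc25a20 and Slc25a42 are highest at P3, and Slc25a45 is highest in LV P7.

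Other members with higher levels after birth were expressed at low or middling levels. Slc25a45, whose substrate is not settled, stood at 2.48, 3.10 and 3.08 RPKM in LV P0, 2.94, 2.36 and 3.47 in LV P3 and 4.68, 4.52 and 4.56 in LV P7. It rose in the LV between P3 and P7 (log2 change 0.52 ± 0.12, adjusted p = 0.00352), and its LV change from P0 to P3 was 0.01 and not called. In the RV it was at 2.78, 1.96 and 2.51 RPKM at P0, 3.01, 3.29 and 3.62 at P3 and 2.85 and 3.10 at P7, with P3 and P7 overlapping and both above P0. There it rose from P0 to P3 (log2 change 0.34 ± 0.12, adjusted p = 0.0403; 0.43 ± 0.10, adjusted p = 0.0039 after upper-quartile scaling). Its P7 against P0 change there was called after upper-quartile scaling (0.47 ± 0.12, adjusted p = 0.00367) but not as deposited (log2 change 0.22 ± 0.14, adjusted p = 0.167). Slc25a16, a carrier linked to coenzyme A, rose in the RV from 6.23 ± 0.468 to 9.02 ± 0.677 RPKM (mean ± SD; log2 change 0.47 ± 0.11, adjusted p = 0.00156). In the LV it went from 7.73 ± 0.268 to 8.90 ± 0.266 RPKM, which was called after upper-quartile scaling only (0.50 ± 0.11, adjusted p = 0.00151). Slc25a35, another carrier of unsettled substrate, rose in the RV from 1.11 ± 0.349 to 2.13 ± 0.299 RPKM (log2 change 0.58 ± 0.16, adjusted p = 0.0052); its LV change was 0.14. Without the 7 libraries low in NM_008710, which leaves 1 library in RV P7, the Slc25a35 change in the RV was 0.48. Slc25a47, known as a liver carrier, stayed at 0.954 to 2.07 RPKM in the LV and 0.791 to 1.79 in the RV, and Slc25a43, Slc25a48 and Slc25a53 did not pass the filter.

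The balance of the ADP/ATP carriers shifted from Slc25a5 towards Slc25a4. The genes lie on chromosome X, 36795597 to 36798808 (Slc25a5, NM_007451) and chromosome 8, 46207168 to 46211062 (Slc25a4, NM_007450). Slc25a5 held 687, 893 and 747 RPKM in the LV at P0, 649, 566 and 586 at P3 and 381, 404 and 422 at P7. In the RV it held 802, 893 and 809.5 at P0, 501, 582 and 523 at P3 and 389 and 506 at P7. All P7 libraries lay below all P0 libraries. It fell to 0.519 of its P0 level in the LV (log2 change -0.94 ± 0.11, adjusted p = 1.06e-06) and to 0.536 in the RV (log2 change -0.91 ± 0.13, adjusted p = 9.98e-06); after upper-quartile scaling the changes were -0.58 ± 0.13, adjusted p = 0.00102 and -0.58 ± 0.14, adjusted p = 0.00335. Both LV steps were called lower as deposited (-0.36 and -0.57), and after upper-quartile scaling only the step from P3 to P7 was (-0.38, adjusted p = 0.0335).

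The muscle carrier Slc25a4 was not called between P0 and P7 on the deposited scale. Its LV libraries held 2005, 2600.5 and 2396 RPKM at P0, 2863, 2823 and 2878 at P3 and 2626, 2404 and 2566 at P7. Its RV libraries held 2171, 2728 and 2768, then 2418, 2587 and 2679.9, then 2472 and 2747. The ages overlapped in the RV and, for P0 and P7, in the LV. The P7 against P0 changes were 0.12 ± 0.12 in the LV (adjusted p = 0.351) and 0.04 ± 0.13 in the RV (0.822). After upper-quartile scaling the LV change was called higher (0.48 ± 0.14, adjusted p = 0.00977) and the RV change was not (0.36 ± 0.16, adjusted p = 0.0788).

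The ratio of the carrier pair within a library does not depend on the scaling. Slc25a4 over Slc25a5 was 2.92, 2.91 and 3.21 in LV P0, 4.41, 4.99 and 4.91 in LV P3 and 6.89, 5.95 and 6.08 in LV P7. In the RV it was 2.71, 3.05 and 3.42 at P0, 4.83, 4.44 and 5.12 at P3 and 6.35 and 5.43 at P7. In each chamber the ratio was higher at each later age with no overlap between libraries. The mean ± SD went from 3.01 ± 0.17 at P0 to 6.31 ± 0.506 at P7 in the LV (n = 3 and 3, two-sided exact permutation p = 0.1) and from 3.06 ± 0.356 to 5.89 ± 0.647 in the RV (n = 3 and 2, exact permutation p = 0.2). These are the smallest p-values such groups can give, so this test cannot pass 0.05, and adjusted over 6 comparisons of ages the exact permutation values were 0.15 and 0.2. A ratio shows unequal change and not which gene moved. Slc25a4 made up 53.5% to 57.2% of the family sum in LV P0 and 63.5% to 63.7% in LV P7, and Slc25a5 17.8% to 19.5% and then 9.25% to 10.7%.

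**Figure D4:**
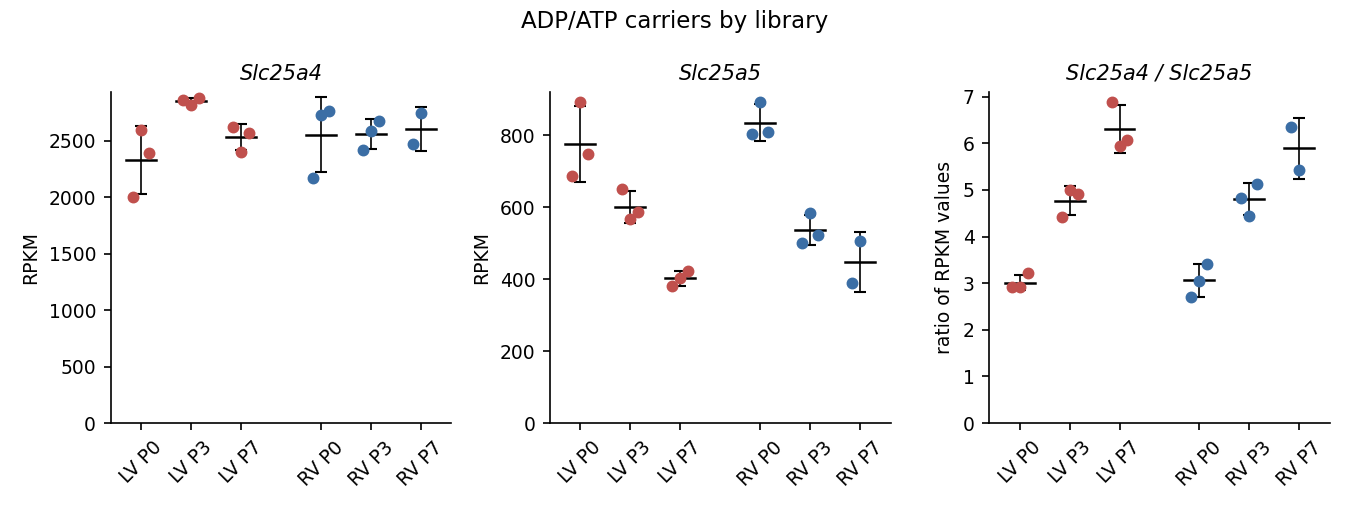
RPKM of Slc25a4 and Slc25a5 and their ratio in each library (points, LV red and RV blue), with group means (lines) and SD (bars), by chamber and age. The ratio is between 2.71 and 3.42 in the P0 libraries and between 5.43 and 6.89 in the P7 libraries.

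Proliferation genes moved in the direction of Slc25a5. The 6 listed genes, among them Mki67 and Top2a, summed to 269.6 to 313 RPKM in LV P0 and 96.7 to 109 in LV P7, and to 217 to 297 and 101 to 105 in the RV, with 6 of 6 called lower in each chamber as deposited. After upper-quartile scaling 6 were called lower in the LV and 5 in the RV. Lower calls covered 53% (LV) and 46.1% (RV) of all tested entries as deposited, and 25.3% and 20.6% after that scaling. The part of the proliferation genes in the Slc25a5 result was not tested. Slc25a3, which imports the phosphate that ATP synthase needs, was at 426 to 502 RPKM in the LV and 413 to 523 in the RV. Its changes were 0.06 ± 0.10 and 0.05 ± 0.11 as deposited and not called, and 0.41 and 0.37 after upper-quartile scaling, both called higher.

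The kinases that pass high-energy phosphate on from these carriers were mixed. Of 6 tested creatine and adenylate kinase genes 1 was called higher and 4 lower in each chamber. The shares of all tested entries were 11.8% and 53% in the LV and 9.81% and 46.1% in the RV. With upper-quartile scaling it was 2 and 2 kinase genes in the LV and 1 and 2 in the RV. All tested entries then gave 24.4% and 25.3% in the LV and 19.8% and 20.6% in the RV. Ckmt2, the mitochondrial creatine kinase of heart and muscle, rose from 90.4 to 440.4 RPKM in the LV (log2 change 2.38) and from 77.4 to 445 in the RV (2.63). The brain-type kinase gene Ckb fell (-0.86 and -1.13).

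The ATP-Mg/phosphate carriers, which change the pool of adenine nucleotides in the matrix in response to calcium, were called lower at P7 than at P0 in both chambers as deposited. Slc25a23 (NM_025877, chromosome 17, 57043711 to 57059909) held 56.4, 50.0 and 42.4 RPKM in LV P0, 32.2, 32.1 and 33.8 in LV P3 and 31.2, 25.2 and 31.4 in LV P7. Its RV values were 41.0, 45.8 and 39.9 at P0, 30.7, 29.4 and 30.3 at P3 and 29.2 and 30.6 at P7. All P0 libraries lay above all later ones. It fell in the LV (log2 change -0.74 ± 0.10, adjusted p = 5.44e-06; -0.39 ± 0.10, adjusted p = 0.00285 after upper-quartile scaling) and was called lower in the RV as deposited only (log2 change -0.48 ± 0.11, adjusted p = 0.00159; -0.17 ± 0.11, adjusted p = 0.244 after upper-quartile scaling). The step from P0 to P3 was called lower in both chambers under both scalings (-0.58 and -0.47 as deposited).

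Slc25a24 (NM_172685, chromosome 3, 109123149 to 109168409) held 14.8, 12.4 and 13.5 RPKM in LV P0, 9.74, 9.93 and 10.5 in LV P3 and 8.43, 8.68 and 9.50 in LV P7. RV libraries held 14.1, 11.8 and 10.8, then 7.31, 8.38 and 9.08, then 6.41 and 8.03. P0 libraries were the highest in each chamber, without overlap. It fell in the RV (log2 change -0.68 ± 0.13, adjusted p = 0.000182; -0.39 ± 0.11, adjusted p = 0.00987 after upper-quartile scaling), and in the LV its lower call (log2 change -0.56 ± 0.11, adjusted p = 0.000254) was lost after that scaling (-0.24 ± 0.10, adjusted p = 0.0566). The other carriers of this kind, Slc25a25 and Slc25a41, did not pass the filter, with means of 0.285 and 0.0179 RPKM.

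Carriers of nucleotides and coenzymes went in different directions. Of 8 tested members of this role 1 was called higher and 4 lower in the LV, and 2 higher and 4 lower in the RV. The shares of all tested entries were 11.8% and 53% in the LV and 9.81% and 46.1% in the RV. With upper-quartile scaling it was 2 and 1 members in the LV, beside 24.4% and 25.3% of all tested entries. In the RV it was then 2 and 0, beside 19.8% and 20.6%. Slc25a42 and Slc25a16 were the higher ones. Slc25a36, a pyrimidine nucleotide carrier (NM_138756, chromosome 9, 97075281 to 97111041), held 19.0, 15.2 and 17.8 RPKM in LV P0, 13.2, 11.1 and 11.4 in LV P3 and 9.66, 9.30 and 10.1 in LV P7, with each age below the one before. It fell in the LV (log2 change -0.77 ± 0.12, adjusted p = 2.32e-05; -0.44 ± 0.09, adjusted p = 0.000723 after upper-quartile scaling). Its RV libraries held 16.7, 11.6 and 12.2, then 11.7, 9.65 and 10.8, then 9.42 and 10.6 RPKM, with RV P0 replicate 1 above the other 2 at that age and P0 overlapping P3. The RV change was called as deposited (log2 change -0.38 ± 0.14, adjusted p = 0.0236), not after upper-quartile scaling (-0.08 ± 0.10, adjusted p = 0.573), and not without RV P0 replicate 1 (-0.23, adjusted p = 0.13) or RV P7 replicate 1 (-0.30, adjusted p = 0.181). Slc25a33, the related pyrimidine nucleotide carrier, went from 3.30 ± 0.652 to 3.42 ± 0.775 RPKM in the LV and was not called (0.04 and -0.06).

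Between P0 and P7 the remaining coenzyme carriers were called lower as deposited only, or not at all. Slc25a51, which brings NAD into mitochondria, went from 24.3 ± 1.60 to 19.1 ± 1.08 RPKM in the LV (log2 change -0.33 as deposited and 0.01 after upper-quartile scaling). Slc25a17, a member found in peroxisomes that carries coenzyme A and other cofactors, went from 17.8 ± 1.93 to 12.8 ± 0.715 (-0.44 and -0.11). Slc25a26, the S-adenosylmethionine carrier, went from 4.55 ± 0.275 to 3.24 ± 0.718 RPKM (-0.40 and -0.12). Slc25a32, a carrier of folates and FAD, went from 2.79 ± 0.337 to 2.62 ± 0.21 RPKM and was not called (-0.07 and 0.19). Its change from P0 to P3 was called higher after upper-quartile scaling only, in the LV (0.34 ± 0.11, adjusted p = 0.0311) and the RV (0.31 ± 0.11, adjusted p = 0.0358).

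Carriers of the malate-aspartate shuttle, which moves reducing power from the cytosol into the matrix, had small changes that depended on the scaling. Slc25a11 was at 118 to 159 RPKM in the LV and 138 to 165 in the RV, with changes of -0.09 and 0.08 as deposited and of 0.27 and 0.40 after upper-quartile scaling, where both were called higher. Slc25a12, the aspartate/glutamate carrier of muscle and brain, was at 59.1 to 76.8 RPKM in the LV and 63.0 to 83.5 in the RV; its LV change was -0.24 (called) as deposited and 0.11 (not called) after scaling. Slc25a13, the liver-type partner, stood at 0.835 RPKM on average over all libraries by its highest entry and was called lower in the LV as deposited only (-0.34; -0.19 after scaling), and Slc25a18, a glutamate carrier, did not pass the filter. Of the 4 enzymes of the shuttle, Got1, Got2, Mdh1 and Mdh2, 0 were called higher and 1 (Got1, -0.37) lower in the LV, 0 and 0 in the RV, and 2 higher and 0 lower in each chamber after upper-quartile scaling. Slc25a10, the dicarboxylate carrier, and Slc25a1, the citrate carrier, had means of 8.48 and 7.59 RPKM. Their LV changes were -0.26 and -0.07 as deposited, the first called, and 0.05 and 0.25 after scaling, neither called. Slc25a21, the oxodicarboxylate carrier, did not pass the filter.

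Among members tied to iron and haem, Slc25a37 and Slc25a39 were lower at P3 than at P0 in both chambers. Slc25a37, the mitoferrin that red cell precursors use, held 8.50, 6.57 and 8.05 RPKM in LV P0, 4.81, 3.31 and 4.70 in LV P3 and 4.44, 5.11 and 6.10 in LV P7, so that P3 held the lowest library. RV libraries held 8.41, 6.60 and 7.85 at P0, 4.96, 3.64 and 4.72 at P3 and 4.13 and 4.69 at P7. All P0 libraries lay above all later ones. It fell from P0 to P3 in each chamber under both scalings (log2 change -0.73 ± 0.14, adjusted p = 0.000877 in the LV; log2 change -0.67 ± 0.14, adjusted p = 0.00139 in the RV), and in the RV it was lower at P7 than at P0 (log2 change -0.67 ± 0.16, adjusted p = 0.00168). Slc25a28, the mitoferrin of other tissues, was at 6.64 to 12.5 RPKM in the LV and 8.55 to 11.3 in the RV and was not called between P0 and P7 as deposited (-0.25 and 0.03). After upper-quartile scaling its RV change was called higher (0.33 ± 0.12, adjusted p = 0.0375) and its LV change was not (0.07). Slc25a39, a glutathione carrier needed for haem synthesis, went in the LV from 111 ± 7.94 at P0 to 81.9 ± 6.50 at P3 and 87.8 ± 8.43 at P7. Its P0 to P3 change was called lower as deposited in both chambers (-0.44 and -0.54) and after upper-quartile scaling in the RV only (-0.40, adjusted p = 0.00662; LV -0.28, adjusted p = 0.0627). Slc25a38, the glycine carrier of the haem pathway, went from 6.24 ± 0.474 to 4.05 ± 0.224 RPKM in the LV (-0.52 as deposited, called; -0.22 after scaling, not called).

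Red cell transcripts were also lower at P3. The 10 erythroid markers summed to 1962 to 3036 RPKM in LV P0, 659 to 668 in LV P3 and 1848 to 2411 in LV P7, and to 1635 to 3594, 538 to 783 and 1453 to 1474 in the RV. The alpha-globin gene Hba-a1 went from 765 through 211 to 759 RPKM in the LV, while Rhag and Epb42, genes of the red cell membrane, stayed under 1 RPKM; the part of red cells in the Slc25a37 and Slc25a39 results was not tested. Of 9 haem synthesis enzymes 1 was called higher and 2 lower in the LV and 2 and 2 in the RV. The shares of all tested entries were 11.8% and 53% in the LV and 9.81% and 46.1% in the RV. With upper-quartile scaling it was 6 and 1 enzymes in the LV, beside 24.4% and 25.3% of all tested entries. In the RV it was then 2 and 1, beside 19.8% and 20.6%. Alas1, the first enzyme of the pathway outside red cells, rose (0.47 and 0.57), and Cpox fell in each chamber (-0.69 and -0.64).

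Slc25a30, a carrier whose sequence resembles the uncoupling proteins (NM_026232, chromosome 14, 75757534 to 75787037), held 10.3, 8.69 and 7.75 RPKM in LV P0, 5.72, 5.55 and 5.83 in LV P3 and 6.25, 4.50 and 5.04 in LV P7. RV libraries held 10.3, 6.52 and 5.54, then 5.05, 4.62 and 4.61, then 3.44 and 4.90, with RV P0 replicate 1 above the rest. P0 libraries lay above later ones in each chamber. It fell in the LV (log2 change -0.66 ± 0.16, adjusted p = 0.00168; -0.35 ± 0.14, adjusted p = 0.0474 after upper-quartile scaling) and in the RV (log2 change -0.68 ± 0.18, adjusted p = 0.00409; -0.41 ± 0.16, adjusted p = 0.048). The calls were narrow. With voom neither passed (adjusted p = 0.0528 in the LV and 0.084 in the RV). Without RV P7 replicate 1 the RV change was -0.48. Without the 7 libraries low in NM_008710 the changes were -0.44 in the LV and -0.89 in the RV. Each of the fits that leave out libraries keeps 1 library at P7 in the chamber compared, while voom used all 17 libraries. Slc25a27, a related carrier best known from brain, went from 1.44 ± 0.128 to 0.784 ± 0.24 RPKM in the LV (called as deposited, -0.46; not after scaling, -0.28), and Slc25a14 did not pass the filter.

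**Figure D5:**
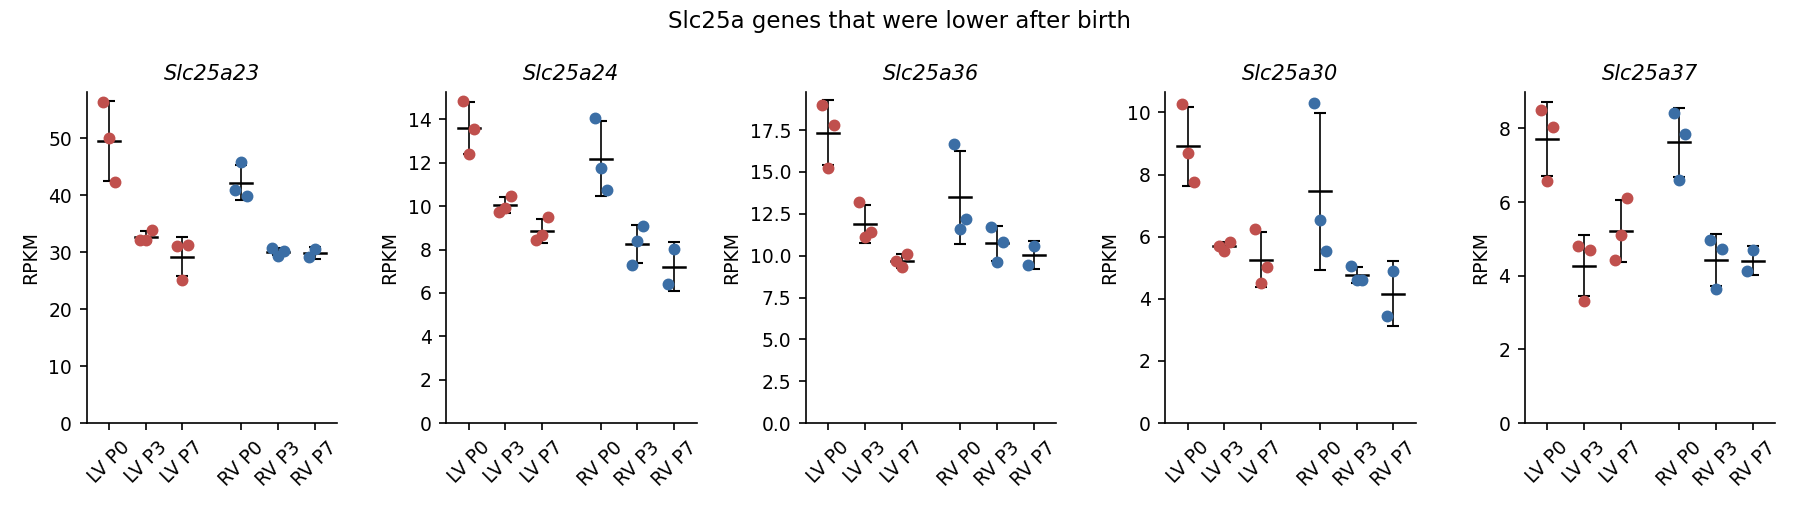
RPKM of Slc25a23, Slc25a24, Slc25a36, Slc25a30 and Slc25a37 in each library (points, LV red and RV blue), with group means (lines) and SD (bars), by chamber and age. In each panel the P0 libraries lie highest in the LV, and for Slc25a36 and Slc25a30 RV P0 replicate 1 lies above the other RV libraries.

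The uncoupling proteins share the carrier fold under other symbols and Ucp2 and Ucp3 rose in both chambers. Ucp2 went from 15.1 to 65.0 RPKM in the LV (log2 change 2.03) and from 14.5 to 92.4 in the RV (2.59). Ucp3, the form of heart and skeletal muscle, went from 0.0681 to 18.3 and 21.1 RPKM in the LV. Most of its step, like that of Slc25a34, thus fell between P0 and P3. Ucp1, the uncoupling protein of brown fat, was at 0 in 12 libraries and at most 0.0668 RPKM in the rest. Of the other brown fat markers, Cidea was higher after birth (10.1 RPKM in LV P0 and 28.4 in LV P7), while Prdm16 and Elovl3 stayed under 1 RPKM. Of 4 tested genes of this group 2 were called higher and 1, Mtch2, lower in each chamber (-0.53 and -0.49); after upper-quartile scaling no member was called lower.

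The remaining amino acid carriers and the member of the outer membrane had modest changes. Slc25a29, a carrier of basic amino acids, held 1.03, 0.985 and 1.17 RPKM in LV P0, 0.543, 0.295 and 0.455 in LV P3 and 1.002, 0.582 and 0.727 in LV P7. It fell from P0 to P3 in each chamber under both scalings (-0.53 and -0.38) and rose from P3 to P7 in the LV (log2 change 0.30 ± 0.11, adjusted p = 0.0386), at levels near 1 RPKM or under it. Slc25a15, the ornithine carrier of the urea cycle, went from 5.02 ± 0.307 to 3.67 ± 0.726 RPKM in the LV (-0.38, called as deposited; -0.09 after scaling, not called). Slc25a40, a relative of Slc25a39, was not called (-0.16 and -0.11), and Slc25a2 and Slc25a44 did not pass the filter. Slc25a46, which sits in the outer membrane and takes part in mitochondrial shape, went from 19.2 ± 0.85 to 15.8 ± 0.962 RPKM (-0.26, called as deposited; 0.07 after scaling, not called). Among 17 tested channels and transporters of mitochondria outside the family, 1 was called higher and 9 lower in the LV and 1 and 8 in the RV. The shares of all tested entries were 11.8% and 53% in the LV and 9.81% and 46.1% in the RV. With upper-quartile scaling it was 3 and 3 of these genes in the LV, beside 24.4% and 25.3% of all tested entries. In the RV it was then 2 and 1, beside 19.8% and 20.6%. The higher one as deposited was Mpc1, a subunit of the pyruvate carrier (0.63 and 0.45), and its partner Mpc2 was not called as deposited (0.00 and -0.29). After upper-quartile scaling Mpc2 was called higher in the LV (0.36, adjusted p = 0.0314).

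The early and the late step were also compared apart. From P0 to P3, 3 members were called higher and 8 lower in the LV, beside 7.26% and 20.6% of all tested entries, and 4 and 9 in the RV, beside 9.72% and 21.5%. After upper-quartile scaling these counts were 5 and 5 in the LV, beside 13% and 10.6% of all tested entries, and 6 and 7 in the RV, beside 17.4% and 14.1%. From P3 to P7, 2 were called higher and 6 lower in the LV, beside 6.56% and 27.9%, and 0 and 1 in the RV, beside 2.5% and 14.8%; after upper-quartile scaling they were 5 and 3 in the LV, beside 13.4% and 12.7%, and 3 and 0 in the RV, beside 5.97% and 5.18%. The steps share the P3 libraries, and RV P7 had 2 libraries. The RV member called lower from P3 to P7 was Slc25a47, and no member was called lower without RV P3 replicate 1, RV P3 replicate 3 or RV P7 replicate 1. The 2 LV members called higher from P3 to P7 were Slc25a45 and Slc25a29, and that count became 1 without LV P3 replicate 2, LV P3 replicate 3, LV P7 replicate 1 or LV P7 replicate 3. Without LV P3 replicate 1 or LV P7 replicate 2 the 6 lower calls from P3 to P7 in the LV became 3.

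No member was called different between the chambers at any single age. RV against LV gave 0 called members at P0, P3 and P7 with limma, and 3, 1 and 5 members at an unadjusted p under 0.05; voom on the recovered reads also gave 0. Of all tested entries 0.141%, 0.825% and 0.159% were called. Averaged over the ages 0 members were called (limma), with 4 at an unadjusted p under 0.05 and 0 by voom, beside 1.61% of all tested entries. Changes ranged from -0.25 to 0.14 on that average. The lowest adjusted p was that of Slc25a24 (log2 change -0.23 ± 0.07, adjusted p = 0.0945), followed by Slc25a30 (log2 change -0.25 ± 0.10, adjusted p = 0.217). With each age and replicate number as a block both were called lower in the RV (-0.21, adjusted p = 0.0215 and -0.26, adjusted p = 0.0424, limma). That block called 601 of all 10668 tested entries lower in the RV and 322 higher. Without RV P0 replicate 1, with no block, the count of members was also 2, beside 304 of all tested entries called lower. Slc25a24 was lower in RV than in LV by group mean at each age (12.2 and 13.6 RPKM at P0, 8.25 and 10.04 at P3, 7.22 and 8.87 at P7).

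The P7 against P0 change differed between chambers for 0 members (limma, adjusted p; 2 at an unadjusted p under 0.05, Slc25a42 and Slc25a36; 0 by voom), beside 0.0375% of all tested entries. Differences ranged from -0.30 to 0.44 on the log2 scale, and 2 SE for the median member was 0.34. After adjustment over all tested entries larger differences can also go uncalled, as the one of 0.44 did. For Slc25a34 the chamber difference was -0.11 ± 0.22, for Slc25a20 0.07 ± 0.13 and for Slc25a5 0.03 ± 0.17.

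Markers of other cell types also moved with age. The 8 endothelial markers summed to 210.4 to 239 RPKM in LV P0 and 391 to 443 in LV P7, the 8 fibroblast markers to 632 to 866 and 1023 to 1136, and the 7 macrophage markers to 67.7 to 88.7 and 113 to 128. As deposited 5 of 8, 3 of 7 and 6 of 7 tested markers were called higher in the LV and 0 lower, and in the RV 4, 5 and 7 were called higher and 1 endothelial marker lower. After upper-quartile scaling 7, 6 and 7 were called higher in the LV and 6, 6 and 7 in the RV, with 0 lower. Of 8 heart muscle markers 2 were called higher and 3 lower in each chamber as deposited, and 4 and 1 in the LV and 3 and 1 in the RV after upper-quartile scaling. Some stood low by the entry used: Tnnt2 at 2.02 to 44.7 RPKM, Myh6 at 21.1 to 99.3 and Pln at 6.26 to 14.4. Whether reads of these genes went to other entries was not tested, so the counts may not show heart muscle content. Liver and skeletal muscle markers stayed low, with summed levels of at most 5.05 and 12.5 RPKM; Alb was at 0 in 12 libraries and Myh4 in 16. The part of cell makeup in the changes of Slc25a genes was not tested.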

How the data were processed

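RNA was measured in 17 libraries, strand-specific and paired-end per the labels. The aligner STAR 2.4.0j and the build mm10 are named in the submitters' processing notes; what counted the reads, and on which annotation, the sources used here do not say. The deposited values are read as RPKM from the values themselves, since no header or label names the unit: whole reads were recovered for 20624 of 20624 entries (tolerance 0.02), giving 27561845 to 41061058 reads per library, of which 16527526 to 29991254 fell in listed entries.

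Entries were named from RefSeq, or from GENCODE for 80 of them. Those reaching 1 RPKM in at least 2 libraries were tested as log2(RPKM + 1) with limma 3.58.1 in R 4.3.3 (6 group means over all libraries, empirical Bayes with trend, two-sided), with Benjamini-Hochberg adjustment over all 10668 tested entries. The code was tested on simulated data. Ratios were compared by exact permutation with scipy 1.17.1. P-values measure the spread between libraries that the labels call biological replicates. Alternatives were upper-quartile scaling, a pseudocount of 0.1 RPKM, no filter, summed entries, a replicate block and leaving out libraries. The block was age with replicate number for chamber comparisons and replicate number alone for age comparisons. The other 2 alternatives were chosen after seeing the data: voom on the recovered reads, and leaving out the 7 libraries low in NM_008710.

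Whether same-numbered LV and RV libraries of an age belong together was checked from their deviations from the group means. The 8 such pairs correlated at 0.269 to 0.587 and 16 differently numbered pairs at -0.402 to 0.094. Deviations cancel out within a group, so positive same-numbered pairs pull the others down, and those are not separate evidence. The numbers were taken as pairs, which the labels do not state. Shared animals and a shared batch cannot be told apart here.

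Members, roles and lists were chosen with earlier results of these data known. Given in full were Slc25a34, Slc25a20, Slc25a4 and Slc25a5, and in the main comparisons the 3 highest and 3 lowest changes among called members whose higher group averaged 5 RPKM or more. Values per library of Slc25a37, Slc25a45 and Slc25a29 are given as well, and these were chosen after their values were seen. Some items are not reported here.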

Additional observations from a re-analysis of the deposited data

How the results depend on the processing

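The scaling and the choice of libraries both moved the counts. Called members, higher and lower, were 4 and 17 for LV P7 against P0 as deposited, 8 and 4 after upper-quartile scaling and 8 and 5 with voom. For RV P7 against P0 they were 5 and 11, then 9 and 4, then 9 and 3. For LV P3 against P0 they were 3 and 8, then 5 and 5, then 5 and 4. For LV P7 against P3 they were 2 and 6, then 5 and 3, then 4 and 3. For RV P3 against P0 they were 4 and 9, then 6 and 7, then 8 and 6, and for RV P7 against P3 0 and 1, then 3 and 0, then 2 and 0. Of all 10668 tested entries voom called 2461 higher and 2838 lower for LV P7 against P0 and 2061 and 2154 for RV P7 against P0. For P3 against P0 it called 1536 and 1039 in the LV and 2333 and 1111 in the RV. For P7 against P3 it called 1221 and 1654 in the LV and 446 and 773 in the RV. Among changes between P7 and P0 that were called under at least 1 of the scalings, those that turned positive in the LV were of Slc25a10 (0.053 after upper-quartile scaling, 0.041 with voom), Slc25a11 (0.266 and 0.247), Slc25a12 (0.11 and 0.091), Slc25a46 (0.073 and 0.057), and, after upper-quartile scaling, Slc25a39 (0.011) and Slc25a51 (0.01). In the RV, by the same rule, Slc25a51 did (0.019 and 0.012). Changes not called under either scaling also turned positive after upper-quartile scaling, such as those of Slc25a1 and Slc25a40 in both chambers.

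Leaving out the 7 libraries low in NM_008710 leaves 1 library in each P3 and P7 group, so counts from that fit are not given. With no filter RV P7 against P3 gave 0 lower. Leaving out 1 library at a time, the lower counts ranged from 6 to 10 for RV P7 against P0 (6 without RV P7 replicate 1 and 7 without RV P0 replicate 1), from 3 to 9 for LV P7 against P3, from 0 to 1 for RV P7 against P3 and from 0 to 2 for RV against LV averaged over ages; the higher count for LV P7 against P3 ranged from 1 to 2. The cause was not tested.

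With each age and replicate number as a block, for the pairing, RV against LV averaged over ages gave 2 members lower in the RV. Of all 10668 tested entries it called 601 lower and 322 higher. For comparisons of ages the block was the replicate number alone, shared over ages and chambers, which is not the pairing. With that block the lower counts for P7 against P0 were 19 in the LV and 12 in the RV, beside 5931 and 5099 of all 10668 tested entries. For LV P7 against P3 the block gave 9 lower, beside 3436 of all tested entries. The edgeR and DESeq2 fits that had been planned were not run, because the deposited unit is not a count. With 2 to 3 libraries a group, 2 SE of the chamber difference of the median member was 0.23 at P0 and P3 and 0.26 at P7 (log2 scale). A call after adjustment over all tested entries needs more than this. Differences of -0.35 at P0 and of -0.49 and 0.35 at P7 were not called.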
